A study of Mus musculus with 354 samples.

Results

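Liver RNA was measured 24 h after tolvaptan or vehicle in 45 inbred mouse lines of the Collaborative Cross, each a fixed mixture of the same founder genomes, and AU8048 is 1 of them. The arrays of this strain were taken by their source label, which gave 8 of the 354 arrays in the series, 4 from animals given tolvaptan (animals 335 to 338) and 4 from animals given vehicle, labelled Control (animals 331 to 334). Per the labels' protocols, all animals were male and 8 to 10 weeks of age, had 7 days to acclimate and went without food for some 18 h. Each array held RNA from the median liver lobe of 1 animal. The other 44 strains supplied 346 arrays. The strain was chosen by the measured differences between its tolvaptan and vehicle arrays, so those differences are described here and support nothing. All animals are of 1 inbred line, so the values speak for 1 genotype.

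Tolvaptan blocks the vasopressin V2 receptor, which in the collecting duct of the kidney controls water reabsorption. Hepatocytes carry mainly the V1a receptor, which couples vasopressin to calcium release and glycogen breakdown. The liver clears tolvaptan through cytochrome P450 3A enzymes, and liver injury is a known risk of the drug in people. The liver also makes the acute phase proteins, whose genes respond to inflammatory cytokines within hours.

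Values are deposited log2 RMA values, so a difference of 1 is a doubling of the array signal, and levels are not compared between genes. Differences are scan-adjusted limma estimates with their standard error (SE), while group means carry the standard deviation (SD) of 4 animals. The typical array median was 2.89, and values near or below it are close to background. The 8 arrays correlated at 0.913 to 0.966 with the other arrays of AU8048 over strain-informative probe sets and at no more than 0.177 with any other strain. In the other strains 34 arrays, in 19 strains, correlated below 0.5 with their labelled strain, and counts without them are given with the limits. Some arrays above 0.5, such as several of AU8024 and AU8033, correlated more with another strain and are not among the 34. Animals 334 and 338 were in the earliest scan (scan 1) and the other 6 in scan 3, so both groups held both scans. The hepatocyte genes Alb, Apoa1 and Ttr had means of 13.57, 13.77 and 13.29 under vehicle, and 13.61, 13.76 and 13.24 under tolvaptan. Umod, a kidney tubule gene, and Adipoq, an adipocyte gene, lay at 1.97 and 2.12 under vehicle.

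Avpr1a, the V1a receptor gene, was measured at 6.51, 6.18, 6.46 and 5.81 in vehicle animals 331 to 334. In tolvaptan animals 335 to 338 it was 5.89, 6.0, 6.37 and 4.98. The groups overlapped, and the difference was -0.43 ± 0.45 (SE). Avpr2, the gene of the drug's own target, was too dim to be tested, at 2.17 ± 0.21 under vehicle and 2.07 ± 0.17 under tolvaptan (SD, n = 4).

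Promoter sequences are shown for Saa3, the gene with the largest positive difference, and for the class II genes H2-Aa and H2-Eb1. These are 2 of the 3 listed class II genes that held the motif marked here. They were not the 2 with the largest differences of their list. Each is the 250 bases before the RefSeq start of the gene, 5′ to 3′ on the strand of the gene. In Saa3 the capitals mark a match to TTGCNNAA, a motif of the C/EBP factors, which drive acute phase genes. In both class II genes they mark CTGATTGG, the Y box bound by the factor NF-Y.

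Saa3 (GRCm38.p6, chr7:46715677-46715926, minus strand): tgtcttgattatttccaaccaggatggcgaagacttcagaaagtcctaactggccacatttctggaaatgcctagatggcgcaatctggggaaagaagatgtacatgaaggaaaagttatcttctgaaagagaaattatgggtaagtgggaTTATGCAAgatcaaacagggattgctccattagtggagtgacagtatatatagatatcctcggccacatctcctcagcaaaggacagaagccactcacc
H2-Aa (GRCm38.p6, chr17:34287824-34288073, minus strand): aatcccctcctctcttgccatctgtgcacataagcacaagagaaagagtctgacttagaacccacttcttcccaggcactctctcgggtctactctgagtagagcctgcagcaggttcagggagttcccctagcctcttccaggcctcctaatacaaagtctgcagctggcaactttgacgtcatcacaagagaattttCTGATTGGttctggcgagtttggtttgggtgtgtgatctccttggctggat
H2-Eb1 (GRCm38.p6, chr17:34305617-34305866, plus strand): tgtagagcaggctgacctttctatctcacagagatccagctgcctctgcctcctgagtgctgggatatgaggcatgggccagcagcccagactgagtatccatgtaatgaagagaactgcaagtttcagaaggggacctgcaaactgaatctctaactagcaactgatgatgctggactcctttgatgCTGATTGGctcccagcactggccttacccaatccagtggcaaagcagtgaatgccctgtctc

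The Saa3 match began 99 bases before the start, and the Y boxes began 51 bases before the start of H2-Aa and 62 bases before that of H2-Eb1. Both strands were searched, and each printed window held 1 match of its motif. Of the 33 listed acute phase genes, 25 had a promoter in the RefSeq table and 12 of those held TTGCNNAA, against 9.55% of all 27025 genes in the table. Of the 12 listed class II genes, 8 had a promoter there and 3 of those held CTGATTGG, against 4.07% of all genes. The 3 were H2-Oa, H2-Aa and H2-Eb1. H2-Ab1 and Cd74, whose differences were larger than that of H2-Aa, were not among them. A match is a description of the letters and no evidence of binding.

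Across the 14125 genes tested, 1 passed the test between tolvaptan and vehicle animals of AU8048. The difference had a median of -0.03, with the 5th and 95th percentiles at -0.38 and 0.36. At an adjusted p under 0.05 (limma, Benjamini-Hochberg), 1 gene passed, 0.00708% of those tested, and 484 genes (3.43%) had an unadjusted p under 0.05, 125 higher (0.885%) and 359 lower (2.54%). The 4 animals of each group did not overlap for 189 genes that were higher (1.34%) and 345 that were lower (2.44%), together 534 (3.78%). Without any difference between groups, chance would on average separate a share of 0.0286 of genes, counting both directions. It would also put a share of 0.05 at an unadjusted p under 0.05. The count of 484 rests on a spread shared over all strains and depends on the arrays in the fit. It was 637 without the arrays off their labelled strain and 1267 with the 8 AU8048 arrays alone. A fold of at least 1.5 was reached by 121 genes higher (0.857%) and 117 lower (0.828%), together 238. That count placed AU8048 at rank 35 of the 45 strains, which ranged from 85 to 1637 with a median of 401. By the 534 genes without overlap it stood higher, at rank 8 of the 40 strains with 8 animals, which ranged from 125 to 693. Both rankings include the 34 arrays off their labelled strain, which lie in 19 of the other strains. In those strains the counts can mix strain and treatment differences, and no rank without them is given. The fold counts of AU8048 moved with single animals. They were 329 higher and 234 lower without vehicle animal 332, 179 and 213 without 334, 143 and 202 without tolvaptan animal 336, and 193 and 220 without 337. Without any of the other 4 animals they lay between 108 and 171 higher and between 81 and 154 lower.

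The gene that passed was Mageb5, a member of the melanoma antigen family that is normally expressed in testis. It was 2.9, 2.0, 3.50 and 2.05 in the vehicle animals and 1.70, 1.16, 1.55 and 1.19 in the tolvaptan animals. The groups did not overlap, but all tolvaptan values and 2 of the 4 vehicle values were below the typical array median, so the change lies in the background range. Its difference was -1.21 ± 0.25 (SE), and leaving out 1 of the 8 animals moved it between -1.43 and -0.92. The call was lost without animal 331, 333, 336, 337 or 338.

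The largest positive differences were in the acute phase gene Saa3 and in Lepr, the leptin receptor, whose short and soluble forms are made by the liver. Saa3 was 5.84, 7.68, 6.84 and 7.63 under vehicle and 8.03, 10.54, 9.31 and 9.78 under tolvaptan. Every tolvaptan animal was above every vehicle animal, with 1 vehicle animal, 331, and 1 tolvaptan animal, 335, at the low end of their groups. The difference was 2.42 ± 0.80 (SE), a fold of 5.34, and was 2.15 in scan 1 and 2.50 in scan 3. It stood at rank 4 of 45 strains, and in the other 44 strains together Saa3 rose by 0.87 (adjusted p = 8.02e-08, limma), with 34 strains positive. AU8048 exceeded that mean by 1.54, with a 95% interval from -0.06 to 3.14.

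Lepr was 3.81, 5.14, 3.44 and 3.08 under vehicle and 5.60, 6.55, 5.26 and 5.29 under tolvaptan. The groups did not overlap, and in both the highest animal stood above the other 3, 332 under vehicle and 336 under tolvaptan. The difference was 1.81 ± 0.61 (SE), positive in all 4 of its probe sets and at rank 2 of 45 strains. The other 44 strains averaged 0.24 (adjusted p = 0.308).

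Kdsr, an enzyme of sphingolipid synthesis, varied little within each group. It was 5.85, 6.01, 6.06 and 6.30 under vehicle and 6.98, 6.94, 6.97 and 7.19 under tolvaptan. The difference of 0.97 ± 0.26 (SE) was at rank 1 of 45 strains and positive in all 3 probe sets, and the other strains averaged 0.05. Tnfrsf14, a receptor of the tumour necrosis factor family, was 3.44, 3.05, 3.52 and 3.60 under vehicle and 4.10, 4.01, 4.47 and 4.47 under tolvaptan. Its groups did not overlap, and its difference of 0.86 ± 0.22 (SE) was also at rank 1. Saa3, Lepr and the genes of this and the next paragraph were named for a low p in AU8048. A rank near an end of the 45 strains follows in part from that choice. The same holds for list members named by their p further below. Serpinb6b, a serine protease inhibitor, differed by 0.86 ± 0.24 with overlapping groups, and without vehicle animal 332 its difference was 1.18 and passed the test. The remaining genes with the lowest p among the higher ones were Urah, an enzyme of uric acid breakdown, at 0.31, the ubiquitin-conjugating enzyme Ube2r2 at 0.39 and Gabpb1, a subunit of a transcription factor of mitochondrial genes, at 0.67. D7Ertd143e, Cldn34b2, 9130001E16Rik and 4933421I07Rik differed by 0.56, 0.77, 0.47 and 0.86, with vehicle means below the typical array median.

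Among the genes with the lowest p on the other side was Ltbp4, a matrix protein that binds latent TGF-beta. It was 5.21, 5.74, 6.07 and 5.24 under vehicle and 4.96, 4.76, 4.94 and 4.07 under tolvaptan. The groups did not overlap, and the difference was -0.88 ± 0.23 (SE), the lowest of 45 strains. F10, coagulation factor X, was 11.54, 11.46, 11.46 and 11.47 under vehicle and 10.97, 11.22, 11.25 and 10.99 under tolvaptan, a difference of -0.37 ± 0.11 with the same sign in all 3 probe sets. Cd83, a marker of activated antigen-presenting cells, differed by -0.82 ± 0.22 with overlapping groups, and by -0.45 without vehicle animal 333. The other genes were Aamp at -0.40, the phosphatase Mtmr14 at -0.61, Mepce, the capping enzyme of 7SK RNA, at -0.60, Asb6 at -0.67 and Ccdc151, a cilia gene, at -0.96. The potassium channel subunit Kcnv1, the transcription factor Sim2 and Hrct1 differed by -0.51, -0.56 and -0.51, with vehicle means of 2.70, 2.80 and 3.39, close to background. Ccdc151 and Sim2 had 1 of 2 probe sets of this sign.

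**Figure D1:**
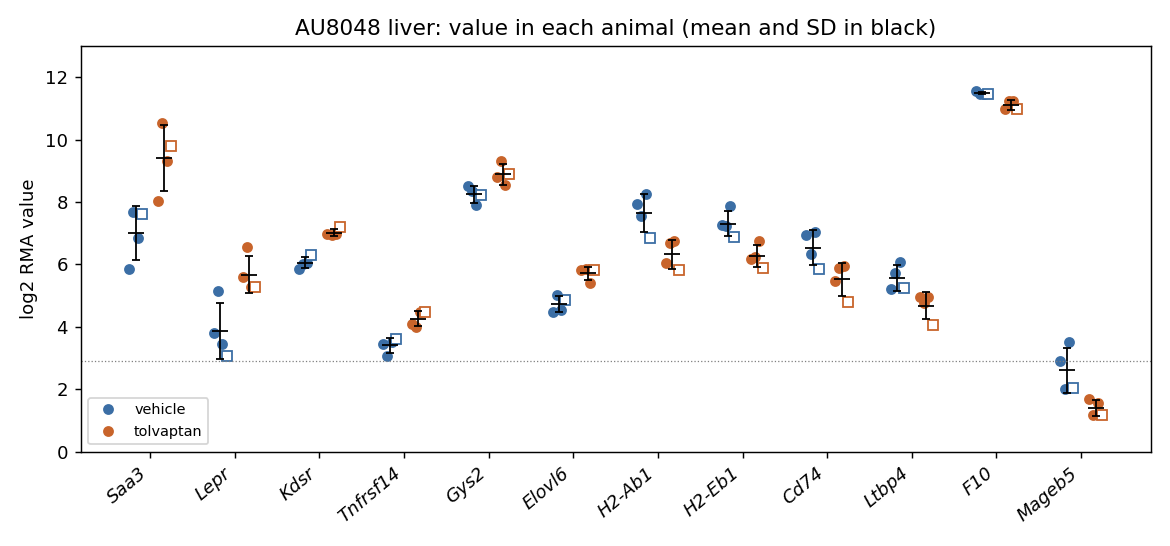
Log2 RMA value of 12 genes in each of the 4 vehicle and 4 tolvaptan animals of AU8048. Filled circles are scan 3, open squares are scan 1 (animals 334 and 338), black marks are the mean and SD, and the dotted line is the typical array median of 2.89. Every tolvaptan value lies above every vehicle value for Saa3, Lepr, Kdsr, Tnfrsf14, Gys2 and Elovl6 and below for H2-Ab1, H2-Eb1, Ltbp4, F10 and Mageb5, while Cd74 overlaps.

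The genes that tolvaptan changed in the other strains are described next in AU8048. In the mean of the other 44 strains 65 genes passed (0.46%), of which 44 rose (0.312%) and 21 fell (0.149%). The number of such genes depended on the arrays and the unit. It was 31 without the arrays off their labelled strain (25 shared), 221 without the strains that hold them (55 shared) and 16 with strains as the unit (13 shared). AU8048 arrays do not enter that mean, although they share the scan terms and the spread of the fit. The AU8048 values of these genes are a description and no test, since AU8048 was chosen by the same contrast. Of the 44, 36 had a positive difference in AU8048, where 44.8% of all tested genes were positive, with a median of 0.19 against 0.17 in the other strains. Of the 21, 20 had a negative difference, where 55.2% of all genes were negative, with a median of -0.23 against -0.13. The AU8048 groups did not overlap for 4 of the 44 and 8 of the 21, each in the direction of the other strains, where 1.34% of all genes were higher and 2.44% lower without overlap.

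The mean of the 44 genes minus the mean of the 21 was -2.43, -2.16, -2.53 and -2.36 in the vehicle animals and -1.92, -1.68, -1.90 and -1.85 in the tolvaptan animals. Every tolvaptan animal was above every vehicle animal, with means of -2.37 ± 0.15 and -1.84 ± 0.11 (SD, n = 4) and a difference of 0.53. In AU8048 the separated rising genes were Saa3, Alas1, Ang and Hp. Alas1, which catalyses the committed step of heme production, was 10.78, 11.09, 11.46 and 10.83 under vehicle and 11.91, 11.76, 11.50 and 11.87 under tolvaptan, a difference of 0.72 ± 0.49 (SE) against 0.34 in the other strains. Angiogenin (Ang) differed by 0.33 ± 0.20 and haptoglobin (Hp) by 0.17 ± 0.09.

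The separated genes on the falling side were Stab2, a scavenger receptor of sinusoidal endothelium, the growth hormone receptor Ghr, Sardh, Prodh2, Cyp2d26, Serpinf1, Coq10a and Fam220a. Stab2 was 7.65, 7.57, 7.79 and 7.94 under vehicle and 7.37, 7.22, 7.49 and 7.35 under tolvaptan, a difference of -0.38 ± 0.24 (SE) against -0.18 in the other strains. Ghr was 10.85, 10.97, 10.85 and 11.03 under vehicle and 10.57, 10.72, 10.83 and 10.79 under tolvaptan, a difference of -0.19 ± 0.16 against -0.13 in the other strains. In Ghr 1 of 3 probe sets had this sign. Sardh, which breaks down sarcosine, differed by -0.38 ± 0.22, and Prodh2, which breaks down hydroxyproline, by -0.34 ± 0.20.

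Other genes of the set, among them Derl3 and Slpi, had overlapping groups in AU8048. Derl3, part of the machinery that removes misfolded proteins from the endoplasmic reticulum, rose most in the other strains, by 1.0 (adjusted p = 2.02e-08). In AU8048 it was 4.86, 5.18, 5.44 and 5.63 under vehicle and 6.13, 6.85, 6.14 and 5.50 under tolvaptan. Animal 338 lay within the vehicle range, and the difference was 0.88 ± 0.88 (SE). The protease inhibitor Slpi rose by 0.48 in the other strains (adjusted p = 0.00028) and differed by -0.04 ± 0.57 in AU8048. The difference between AU8048 and the other strains was -0.51 for Slpi, with a 95% interval from -1.65 to 0.62, so a response of the size of the other strains lay within it. Tested over all genes, AU8048's difference departed from that of the other strains for 0 genes (0% of 14125, limma), with 434 (3.07%) at an unadjusted p under 0.05.

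**Figure D2:**
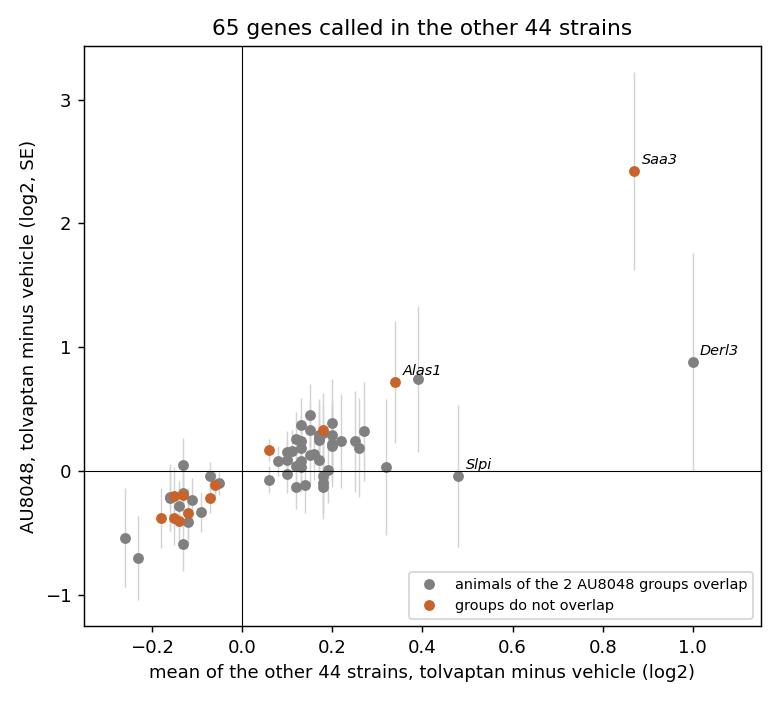
For the 65 genes called in the other 44 strains, the horizontal axis is the mean log2 difference of those strains (tolvaptan minus vehicle) and the vertical axis is the difference in AU8048 with its SE. Orange points are the 12 genes whose AU8048 groups did not overlap, and Saa3 stands highest at 2.42.

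Drug metabolism genes lay close to 0 in the median within AU8048. Of 29 tested targets of the nuclear receptors CAR and PXR, which sense foreign compounds, 21 were above 0 and 8 below, with a median of 0.06, against -0.03 over all genes. The list median was 0.36 in scan 1, with 1 animal per treatment, and 0.01 in scan 3. In 2 of the 29, Cyp3a25 and Alas1, the groups were separated, both higher, against 1.34% of all genes. Cyp3a11, the main mouse P450 of the 3A family, was 13.01, 12.92, 12.95 and 12.64 under vehicle and 13.10, 13.03, 13.00 and 12.94 under tolvaptan, a difference of 0.14 ± 0.31 (SE). Cyp2b10, the standard marker of CAR activity, differed by 0.01 ± 1.10. Among transporters, Abcb11, the bile salt export pump, differed by 0.39 ± 0.33, Abcc2, which exports conjugates into bile, by 0.21 ± 0.30 and Slc10a1, which takes up bile salts, by 0.23 ± 0.25. The 21 tested bile acid and drug transporters had a median of 0.14, with 15 above 0. Of 26 tested NRF2 targets, induced by oxidative stress, 13 were above 0 and 13 below. Of 9 tested targets of the aryl hydrocarbon receptor, 7 were above 0.

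All 12 tested genes of MHC class II antigen presentation were lower in tolvaptan animals, with a median of -0.35 against -0.04 in the other strains. Leaving out 1 animal kept that median between -0.43 and -0.29. In AU8048 4 of the 12 had a mean below the typical array median, close to background. Of all tested genes 55.2% were below 0. H2-Ab1, a beta chain, was 7.92, 7.54, 8.26 and 6.85 under vehicle and 6.03, 6.69, 6.75 and 5.83 under tolvaptan. Its difference of -1.31 ± 0.69 (SE) had the same sign in all 3 probe sets, and the groups did not overlap. H2-Eb1 was 7.26, 7.23, 7.86 and 6.89 under vehicle and 6.18, 6.25, 6.75 and 5.88 under tolvaptan, also without overlap, a difference of -1.05 ± 0.64. These were 2 of the 12, against 2.44% of all genes lower without overlap. Cd74, the invariant chain that guides class II molecules, was 6.93, 6.33, 7.04 and 5.84 against 5.47, 5.87, 5.96 and 4.80, a difference of -1.01 ± 0.36 with overlap. H2-Aa differed by -0.66 ± 0.51, and H2-DMb2, which helps load peptides, by -0.29 ± 0.14 close to background. Ciita, the class II transactivator, lay at 2.12 to 2.51 under vehicle, below the typical array median.

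The mean over the 12 genes was 5.09 to 5.66 under vehicle and 4.69 to 5.04 under tolvaptan. The strain's list median stood at rank 38 of 45, in a range of -0.75 to 0.81 over the other strains. Cells that carry class II genes were read from their markers. Of 18 tested Kupffer cell and macrophage markers 12 were below 0, with a mean level of 5.95 to 6.43 under vehicle and 5.71 to 6.34 under tolvaptan. Clec4f, the defining Kupffer cell lectin, was 8.66, 8.37, 8.87 and 8.48 under vehicle and 7.98, 8.17, 8.36 and 7.80 under tolvaptan, a difference of -0.52 ± 0.29 without overlap. Vsig4, another Kupffer cell gene, differed by 0.04 ± 0.31, and Cx3cr1, a macrophage receptor near background, was separated the other way at 0.26 ± 0.14. Of 10 tested B cell and plasma cell markers 4 were below 0, with a mean level of 3.21 to 3.34 against 3.03 to 3.40, and a list median of 0.05. Cd79a, the signalling chain of the B cell receptor, went against its list at -0.94 ± 0.46. The part of these cells in the class II values was not tested, and in bulk liver fewer cells of a type and less RNA per cell cannot be told apart.

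Lists of lipid and sugar metabolism lay on both sides of 0. Of 16 tested cholesterol synthesis genes 15 were below 0, with a median of -0.30 against 0.11 in the other strains. None had separated groups: the list mean was 7.03 to 8.17 under vehicle and 6.84 to 7.59 under tolvaptan, with vehicle animal 332 highest, and without that animal the median was -0.10. Srebf2, the transcription factor of the pathway, differed by -0.36 ± 0.25, and Tm7sf2, a sterol reductase, by -0.30 ± 0.22. Of 23 tested fatty acid synthesis genes 13 were above 0. The elongase Elovl6 was 4.49, 5.02, 4.54 and 4.87 under vehicle and 5.82, 5.84, 5.41 and 5.81 under tolvaptan, without overlap, a difference of 0.99 ± 0.53 (SE) with 2 of 3 probe sets of the same sign.

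Of 29 tested PPAR-alpha targets and fatty acid oxidation genes 21 were above 0, with a median of 0.13 that was 0.05 without vehicle animal 332. In 4 of the 29 the groups were separated, all higher, against 1.34% of all genes. These were Cpt2 (0.27 ± 0.17) and Acadl (0.29 ± 0.16), enzymes of mitochondrial fatty acid oxidation, the thioesterase Acot1 (0.40 ± 0.63) and the fatty aldehyde dehydrogenase Aldh3a2 (0.48 ± 0.41). Of 16 tested gluconeogenesis and glycogen genes 12 were above 0, with a median of 0.22, at rank 3 of 45 strains, that was 0.11 without vehicle animal 333. Gys2, the liver glycogen synthase, was 8.52, 8.35, 7.90 and 8.21 under vehicle and 8.80, 9.32, 8.53 and 8.90 under tolvaptan. Every tolvaptan animal was above every vehicle animal, and the difference of 0.64 ± 0.29 (SE) was the highest of 45 strains. Of 19 tested glycolysis and hypoxia genes 14 were below 0, and their median of -0.19 was the lowest of 45 strains, the others ranging from -0.14 to 0.27. Without tolvaptan animal 335 it was -0.08. Ldha, lactate dehydrogenase A, was 13.34, 13.22, 13.28 and 13.36 under vehicle and 12.98, 13.16, 13.12 and 13.07 under tolvaptan, a difference of -0.22 ± 0.09 without overlap.

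Besides Saa3, the acute phase list was uneven. Of its 29 tested genes 20 were above 0, with a median of 0.13, and without tolvaptan animal 336 the median was 0.05. Saa1 was 10.12, 11.46, 10.37 and 11.86 under vehicle and 11.87, 12.35, 12.43 and 9.99 under tolvaptan. Saa2 was 8.00, 9.17, 7.90 and 10.34 against 9.72, 11.52, 10.79 and 7.40, and lipocalin 2 (Lcn2) 8.64, 9.32, 8.37 and 8.90 against 9.46, 10.69, 10.14 and 6.29. In all 3 genes animals 335 to 337 were above the vehicle mean and animal 338 was the lowest of the 8. Saa3 in animal 338 was 9.78, above every vehicle animal. These 3 genes were singled out after their values were seen, with differences of 0.71 ± 0.64, 1.01 ± 1.07 and 0.34 ± 1.35 (SE).

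Stress pathways lay on both sides of 0. Of 32 tested genes of the unfolded protein response 16 were above 0 and 16 below, with calnexin (Canx) at 0.57 ± 0.27 and the co-chaperone Dnajc3 at 0.54 ± 0.33. Of 22 tested ATF4 targets of the integrated stress response 15 were below 0, with the lipoprotein receptor Vldlr at 0.76 ± 0.28 in the fit, with 4 of 5 probe sets of the same sign, but at -0.65 in scan 1. Of 19 tested heat shock chaperones 12 were above 0, with a median of 0.26 at rank 5 of 45 strains, but 0.1 in scan 3. Without overlap 2 were higher and 2 lower, against 1.34% and 2.44% of all genes. The higher genes were Hspa4 (0.49 ± 0.30, 2 of 3 probe sets of the same sign) and Hsp90aa1. The lower genes were Hspb8 (-0.42 ± 0.21) and Serpinh1, which lay between -1.07 and -0.77 when 1 animal was left out. Of 19 tested p53 targets 12 were below 0, and of 32 tested cell cycle genes 18. Hmox1, which breaks down heme, differed by -0.75 ± 0.42, the lowest of 45 strains, but by 0.11 in scan 1. In the urea cycle and amino acid list 4 of 33 tested genes were lower without overlap and 1 was higher, against 2.44% and 1.34% of all genes. The lower genes were Nags (-0.42 ± 0.16), which makes the activator of the urea cycle, proline dehydrogenase (Prodh, -0.61 ± 0.29), Haao (-0.45 ± 0.22), an enzyme of tryptophan breakdown, and Sardh. The higher gene was Slc25a13 (0.33 ± 0.23), a mitochondrial aspartate and glutamate carrier. In the respiratory chain list 26 of 47 were above 0, while 4 were lower without overlap and 1 was higher, against the same shares of all genes. The lower genes were Uqcrc1 (-0.34 ± 0.13), Ndufa10 (-0.25 ± 0.10), Sdhb (-0.23 ± 0.12) and Ndufb8 (-0.21 ± 0.12), and the higher gene was Ndufa9 (0.11 ± 0.11).

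**Figure D3:**
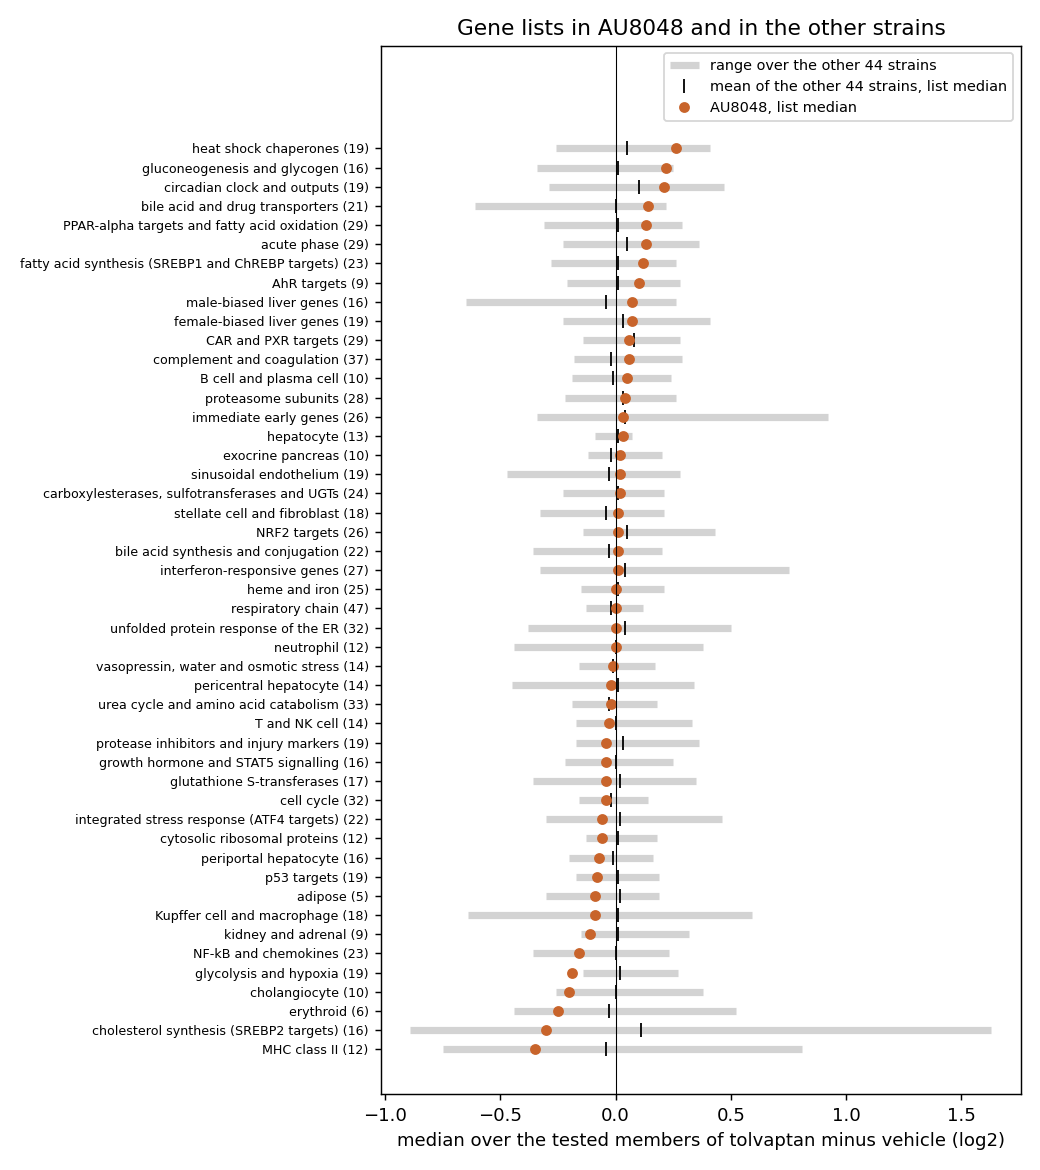
Median log2 difference (tolvaptan minus vehicle) over the tested members of 48 gene lists, with the number of members in brackets. Orange points are AU8048, black bars the mean of the other 44 strains and grey bars the range over those strains. AU8048 lies within the range for every list but glycolysis and hypoxia, where it is at -0.19. Without tolvaptan animal 335 that list also falls within the range.

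Under vehicle, the liver of AU8048 differed from the mean of the other strains, with 871 genes past the threshold. These were 6.17% of those tested (adjusted p under 0.05, limma), 570 higher (4.04%) and 301 lower (2.13%) than the mean of the other strains. AU8048 had the highest mean of all 45 strains in 233 of the 570 and the lowest in 97 of the 301. The test uses the spread between animals within a strain and treatment, not that between strains. The same count for each other strain is not given here, so 871 is not known to be high or low for a strain. With scan 3 arrays alone 1293 genes passed, 706 of them among the 871. The 4 tolvaptan animals do not enter the vehicle means, although they share the scan terms and the spread of the fit, and allow a repeat against the tolvaptan animals of the other strains, in which 764 genes passed (5.41%), 420 of them higher (2.97%) and 344 lower (2.44%). Of the 570, 554 were again higher and 247 (43.3%) passed again, and of the 301, 298 were again lower and 183 (60.8%) passed again. These vehicle animals are also the controls of the tolvaptan difference above. Whether strain sequence differences under the probes contribute was not tested, and the number of probe sets that agree in sign is given where those of a gene disagree.

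Among called genes in which AU8048 was the highest of the 45 strains, the largest excess was in Htra3, a secreted serine protease, and A2ml1, a relative of the protease inhibitor alpha-2-macroglobulin. Htra3 was 8.63, 6.48, 9.28 and 8.97 in vehicle animals and 7.13, 7.58, 8.70 and 8.56 in tolvaptan animals, above every vehicle mean of the other strains, which ranged from 3.38 to 5.96. The difference was 3.97 ± 0.23 (SE, adjusted p = 4.56e-40), with 2 of 3 probe sets of the same sign, and 3.63 in the tolvaptan animals. A2ml1 was 8.94 ± 0.33 (SD, n = 4) against 5.17 on average, a difference of 3.80 ± 0.39. The sterol-binding protein Osbpl3 was higher by 3.69 and the inhibitory G protein subunit Gnai1 by 2.73. In Osbpl3 and in Slc15a2 2 of 3 probe sets had the same sign. The exchange factor Arhgef10, the peptide transporter Slc15a2 and the collagen gene Col5a3 were higher by 2.44, 2.41 and 2.0. Aqp4, a water channel best known from astrocytes, was higher by 2.22 ± 0.36 with all 3 probe sets, at 4.37, 6.38, 5.0 and 5.73 in the vehicle animals against strain means of 2.02 to 5.24. For each of these 8 genes AU8048 was the highest of the 45 strains in the fit, and each passed again in the tolvaptan animals.

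On the low side, Cyp2j6, an epoxygenase of fatty acids, was 2.48, 4.05, 2.56 and 2.29 in the vehicle animals, mostly near background, against 5.78 ± 1.25 (SD) in the other strains. The difference was -3.05 ± 0.37 (SE, adjusted p = 4.77e-12). Thrap3, a splicing and transcription coactivator, was 5.11, 5.59, 3.72 and 4.56 against 7.80 ± 0.59, a difference of -2.99 ± 0.23. Rbck1, a subunit of the linear ubiquitin ligase, was 4.58, 4.08, 4.11 and 4.74 against 7.34 ± 0.63, a difference of -2.93 ± 0.24. The other 5 were 1700001C19Rik (-3.06), Fam47e (-3.0), Dtd2, a proofreading deacylase of tRNA (-2.70), Ccdc30 (-2.59) and Mmd2 (-2.50), with 1 of 2 probe sets of the same sign in Dtd2 and 2 of 6 in Ccdc30. AU8048 was the lowest of the 45 strains in the fit for all 8, and each passed again in the tolvaptan animals.

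Among CAR and PXR targets 4 of 29 were higher in vehicle animals and 1 was lower, against 4.04% and 2.13% of all genes. Of these, 3 of those higher and the lower gene passed again in the tolvaptan animals. Cyp2b10 stood out in size. It was 12.01, 12.13, 11.93 and 9.75 in vehicle animals and 12.39, 11.84, 11.35 and 10.29 in tolvaptan animals, against 6.52 ± 2.52 (SD) in the vehicle arrays of the other strains, whose means ranged from 2.96 to 11.48. In both groups the animal of scan 1 was the lowest. The difference was 4.47 ± 0.81 (SE, adjusted p = 1.03e-05), a fold of 22.2 and rank 3 of 45 strains, and 4.13 in the tolvaptan animals (adjusted p = 6.95e-05). When single AU8048 animals were left out and under the other alternatives it stayed between 4.31 and 5.75. Nr1i3, the gene of the receptor CAR itself, was 9.95, 9.83, 9.93 and 9.99 in vehicle animals against 9.0 ± 0.57, a difference of 0.95 ± 0.24 (adjusted p = 0.00397) and rank 2 of 45. It was 1.01 higher in the tolvaptan animals, and its vehicle difference had an adjusted p of 0.0536 in scan 3 arrays alone. Cyp2c39 was higher by 1.80 ± 0.51 and Gstm1 by 0.61 ± 0.19, while Cyp3a13 fell short of the other strains, at 7.38 against 8.70 with a difference of -1.34 ± 0.34. Gstm1 did not pass in the tolvaptan animals, and its call was lost without animal 331 or 333 and with the mean of its probe sets. The call of Cyp2c39 was lost without animal 331 or 333 and that of Cyp3a13 without animal 333.

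Some genes of the unfolded protein response were lower in AU8048 than in the other strains. Of 32 tested, 5 were lower in vehicle animals and 0 higher, against 2.13% and 4.04% of all genes, with a list median of -0.34. In the tolvaptan animals 5 were lower and 1 higher, with a median of -0.32. Manf, a chaperone-like protein secreted under stress of the endoplasmic reticulum, was 8.61, 7.97, 8.55 and 8.64 against strain means of 8.65 to 10.35, a difference of -1.15 ± 0.28 (adjusted p = 0.00239). Derl2, of the degradation channel, was 9.64, 9.62, 9.66 and 9.44 against strain means of 9.84 to 10.54, a difference of -0.68 ± 0.11 (adjusted p = 6.37e-07). Both were the lowest of 45 strains. Xbp1, a transcription factor of this response, was 10.96 ± 0.27 (SD, n = 4) against 11.39 on average, a difference of -0.43 ± 0.12. Manf, Derl2 and Xbp1 passed again in the tolvaptan animals, and Hsp90b1 and Canx did not. Without vehicle animal 332 Xbp1 was no longer called, and without 331, 333 or 334 the calls of Hsp90b1 and Canx were lost. That of Hsp90b1 was also lost with the mean of its probe sets.

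Of 37 tested complement and coagulation genes 5 were higher in vehicle animals and 0 lower, against 4.04% and 2.13% of all genes. C8b, a chain of the membrane attack complex, was 10.74, 11.67, 10.96 and 11.48 against strain means of 9.11 to 10.95, higher by 1.09 ± 0.18 (adjusted p = 3.9e-07) and the highest of 45 strains. The difference was 1.30 in the tolvaptan animals. C1ra, Masp1, F12 and Proc were higher by 0.36, 0.65, 0.40 and 0.22, and each of these 4 calls was lost without at least 2 of the 4 vehicle animals. Masp1, with 2 of 5 probe sets of the same sign, differed by 0.05 with the mean of its probe sets. Among NRF2 targets 4 of 26 were higher and 1 lower, against the same shares. The aldehyde oxidase Aox1 was 10.65, 10.44, 10.41 and 10.58 against 8.90 ± 0.88, higher by 1.70 ± 0.28 (adjusted p = 9.43e-07). The others higher were Gsta4, Gstm1 and Taldo1, whose calls were lost in 3, 3 and 2 of 16 alternative settings, against 0 for Aox1. The lower gene was Nqo1, which did not pass in the tolvaptan animals. In the list of vasopressin, water and osmotic genes 2 of 14 were lower and 0 higher, against 2.13% and 4.04% of all genes. Aqp11, an intracellular water channel, was 8.24, 7.92, 7.84 and 7.84 against 9.65 ± 0.89, lower than all other strains in the fit, with a difference of -1.74 ± 0.23 (adjusted p = 4.53e-10) and -1.55 in the tolvaptan animals. Agt, the precursor of angiotensin, differed by -0.45, and its call was lost without 331, 333 or 334, without the scan term and in scan 3 arrays alone. Avpr1a did not pass, at -0.20 (adjusted p = 0.835).

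**Figure D4:**
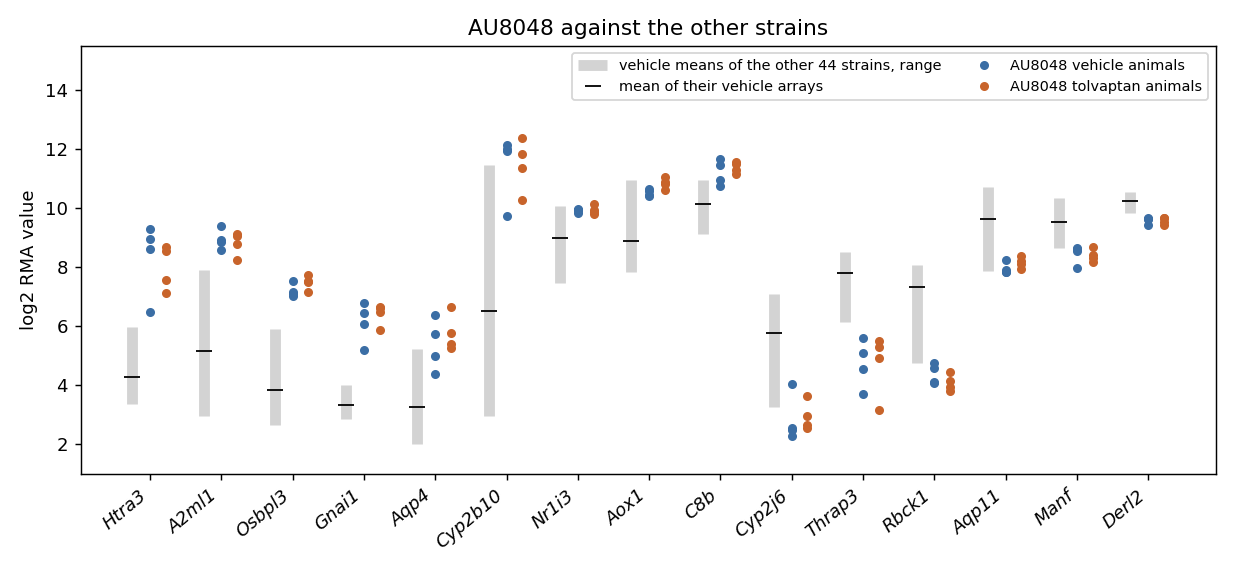
Log2 RMA value of 15 genes in the 4 vehicle (blue) and 4 tolvaptan (orange) animals of AU8048, beside the range of the other 44 strains' vehicle means (grey) and the mean of their vehicle arrays (black). Cyp2b10 lies at 9.75 to 12.39 in the 8 animals, and Htra3, A2ml1, Osbpl3 and Gnai1 lie above the range of the other strains' means.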

How the data were processed

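The authors deposited log2 values per probe set for 354 Affymetrix HT_MG-430 PM arrays, made with RMA in the Affymetrix Expression Console per the submitters' processing notes. Versions are not given in the sources used here, nor whether all arrays were normalized together. Arrays have no read depth, and their number limits the precision. Of 42597 probe sets, 27691 had 1 gene symbol, 493 several and 14376 none, beside 37 controls, and 27494 Entrez identifiers were found in RefSeq (GRCm38.p6), used for names and promoters. Where a gene had several promoters in the table, the one listed at the top was used.

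A gene was read from its single-symbol probe set of highest mean. Genes had to exceed the median of their array in 4 or more of the 354 arrays, which left 14125 of 16670. Of those, 3803 did not exceed it in 4 of the 8 AU8048 arrays. A model with 1 mean per strain and treatment plus scan (6 scan dates, coded in order) was fitted to all 354 arrays with limma 3.58.1 in R 4.3.3, with two-sided tests and Benjamini-Hochberg adjustment at 0.05. The spread was shared over all strains, and no sample was dropped or imputed. Strain averages give each strain equal weight. Steps were tested on simulated arrays. Figures used matplotlib 3.10.9.

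The rule for named genes took, in AU8048, the 12 genes with the lowest unadjusted p in each direction that had the same sign in scans 1 and 3, after any called ones, and for each list up to 4 called members or else the 2 with the lowest p. It took 8 genes each way in the vehicle contrast with the largest called difference in which AU8048 ranked at the end of the 45 strains, and always Avpr1a, Avpr2, Cyp3a11, Cyp2b10, Abcb11, Abcc2, Slc10a1, Alas1, Derl3, Saa3, Slpi and Stab2. Called list members of the vehicle contrast, separated list members and some markers were added after their values were seen. The strain, its members and the gene lists were chosen with earlier results of these data known. Array identity was checked over 500 strain-informative probe sets with a limit of 0.5 on the correlation. The dose label has no unit and is not used here.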

Additional observations from a re-analysis of the deposited data

Results flagged for a closer look

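In the AU8048 groups of 4 animals, 24 of 282 gene and group combinations held 1 animal whose log2 value stood far from the other 3 relative to their range, and chance flags about 1 in 20 such groups. These are values with no explanation.

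Animal 338, scanned in scan 1, stood apart in 6 genes of the tolvaptan group, with Asb6 at 4.16, Prodh at 8.87, the iron regulator Hjv at 7.92, Tnfaip2 at 5.83, Retn at 2.01 and Slc10a1 at 12.04. Animal 334, the vehicle animal of scan 1, stood apart in Cyp2b10 at 9.75, the urea cycle gene Ass1 at 11.18, the B cell gene Cd37 at 3.83 and Fam47e at 3.25. Vehicle animal 333 stood apart in Nags at 9.48, Relb at 3.70, Gstp1 at 13.39 and the galectin Lgals3 at 8.05.

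Vehicle animal 331 stood apart in F10 at 11.54, the tight junction gene Cldn7 at 4.23 and Dtd2 at 2.11, and vehicle animal 332 in Bub1 at 4.03 and Cyp2j6 at 4.05. Among the other tolvaptan animals, 335 stood apart in D7Ertd143e at 3.48 and Reg1 at 2.40, 336 in the transcription factor gene Nfe2l2 at 7.59 and in Ier3 at 3.50, and 337 in Elovl6 at 5.41.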

How the results depend on the processing

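With 4 animals a group, the AU8048 counts depend on single animals. The 1 call between tolvaptan and vehicle ranged from 0 to 2 when single AU8048 animals were left out, was 0 when genes had to lie above the array median in at least 4 AU8048 arrays, which removes Mageb5, and was 0 with the 8 AU8048 arrays alone, where 1267 genes had an unadjusted p under 0.05. It was 1 in the other 8 settings. The 65 calls of the other 44 strains became 31 without the 34 arrays off their labelled strain (25 shared), 221 without the 19 strains that hold such an array (55 shared) and 16 with strains as the unit (13 shared), and lay between 54 and 84 in the other 6 settings. The cause of these moves was not tested. The test of AU8048 against the other strains called 0 or 1 genes without single animals and 0 in every other setting. The 871 calls of the vehicle contrast ranged from 428 to 885 without single animals (541 without 331, 428 without 333, 530 without 334) and from 812 to 1293 otherwise. Its repeat in the tolvaptan arrays, added after seeing the data, gave 432 to 772 without single animals (456 without 335, 432 without 336, 442 without 338) against 764. Of the alternatives for single genes of the tolvaptan contrast, 2169 stayed within the spread between animals, 59 moved beyond it, 6 lost the call of Mageb5 and 1 gained a call (Serpinb6b). Of those for genes of the vehicle contrast 612 kept the call and 55 lost it, and none reversed. For list medians 518 stayed within the spread and 10 moved beyond it. No paired analysis was possible because every animal has its own number and the groups share none.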
